A study of Mus musculus with 24 samples.

Results

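The type I interferon response genes described here are 40 genes that cells switch on when they sense interferon. They were taken by gene symbol from a list chosen with earlier results of these data known. All 40 were found among the 20673 genes of the count files of the series. Counts of members set beside shares of all genes therefore describe the list and do not test it. Messenger RNA was sequenced from 4 activated mouse immune cell types (dendritic cells, macrophages, B cells and CD4 T cells), each from wild-type (WT) mice and from mice lacking the microRNA miR-155 (KO). The study addressed how far cellular context shapes what miR-155 regulates. Each of the 8 groups held 3 libraries, 24 in all.

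All mice were C57BL/6J. The B cells came from spleen, were purified by removal of CD43-carrying cells, and received 25 ug/ml LPS (lipopolysaccharide, a bacterial activator of Toll-like receptor signalling) with 6.5 ng/ml IL-4. Dendritic cells were spleen cells selected on CD11c from mice that had carried B16 melanoma cells making Flt3 ligand, a factor that expands dendritic cells, and were given GM-CSF at 20 ng/ml together with LPS at 100 ng/ml. Macrophages were drawn from the peritoneum after thioglycollate and given 100 ng/ml LPS. The CD4 T cells came from lymph node and spleen, lacked CD25 and CD44, and were activated with beads bearing antibodies to CD3 and CD28, with no LPS. The KO and WT groups of a cell type were thus treated alike, whereas cell types differed in stimulus, so that cell type and stimulus cannot be told apart in any comparison between them. The time after activation is not given in the sources used here. The labels call the 3 libraries of a group sequencing replicates and name no separate animals. The p-values therefore rest only on how far these libraries spread, and that spread may be technical.

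Type I interferons are secreted proteins, made when a cell detects microbial nucleic acid or LPS, that bind a receptor built from Ifnar1 and Ifnar2. The receptor's kinases, Jak1 and Tyk2, phosphorylate Stat2, which acts with Irf9 in a complex that binds interferon-stimulated response elements in promoters. The induced proteins sense viral RNA, block translation, degrade RNA, modify proteins with Isg15 or ADP-ribose, and restrict the entry and release of viruses. miR-155 rises in activated lymphocytes and myeloid cells and lowers messenger RNAs that pair with its seed.

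The sequence of the microRNA is shown first because its seed defines which members could pair with it. The mature mmu-miR-155-5p lies at chr16:84714143-84714165 on the plus strand of GRCm38.p6 (sequence from RefSeq), and the capitals mark its seed, bases 2 to 8:
mmu-miR-155-5p: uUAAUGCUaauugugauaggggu
The longest annotated 3' UTR of each member (GENCODE M21, GRCm38) was searched on the sense strand for 4 classes of site, and each gene was placed in the first class it met. The 8mer reads AGCATTAA. The 7mer-m8 reads AGCATTA, whereas GCATTAA is the 7mer-A1. The 6mer is GCATTA. No member held an 8mer or 7mer-m8. Ifit2 and Dtx3l held a 7mer-A1, and 4 members (Ifit1, Ifih1, Eif2ak2 and Parp12) held only a 6mer, so 34 of the 40 held none of these sites. Over all genes of the files with a 3' UTR, 12.82% of 19464 held an 8mer or 7mer, and 7.157% held only a 6mer. The class of the 7mer-A1 held 4.269% of them. The 7mer-A1 sites of the 2 members are shown in capitals at the end of the 30 bases that lead up to them:
Ifit2: ttaaaaatgaaaatattctctatGCATTAA
Dtx3l: tcttttgcaaggtgttattatctGCATTAA
The Ifit2 site starts at base 1883 of a 3' UTR of 1945 bases and the Dtx3l site at base 2754 of 2788. A match is a description of the letters and does not show that the site is used.

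Promoters were searched for a core that interferon-stimulated response elements share, GAAA, any 2 bases, then GAAA, on either strand, in windows from 250 bases before to 50 bases after the start (RefSeq, GRCm38.p6). Of the 31 members with a window, 14 held the core (45.16%), against 623 of 15656 genes of the files (3.979%). Parp9, Usp18, Oas2, Parp14, Rtp4, Mx1, Mx2, Zbp1 and Dhx58 were without a window. Overlapping matches count separately, and Isg15 had 3 that overlap by 4 bases each, between 78 and 57 bases before its start. The 130 bases before the start are printed for 4 members that rose in KO dendritic cells and held the core (in capitals), and for the 2 that fell there and did not:
Isg15, chr4:156200819-156200948, minus strand: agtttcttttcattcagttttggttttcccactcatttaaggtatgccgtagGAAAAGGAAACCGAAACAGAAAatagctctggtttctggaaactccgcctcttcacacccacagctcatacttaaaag
Ifit1, chr19:34640759-34640888, plus strand: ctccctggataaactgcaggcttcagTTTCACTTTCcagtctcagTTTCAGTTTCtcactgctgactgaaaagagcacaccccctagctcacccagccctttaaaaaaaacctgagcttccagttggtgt
Oas3, chr5:120777660-120777789, minus strand: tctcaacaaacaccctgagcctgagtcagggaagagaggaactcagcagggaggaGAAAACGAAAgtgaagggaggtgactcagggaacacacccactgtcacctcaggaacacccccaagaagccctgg
Rsad2, chr12:26456453-26456582, minus strand: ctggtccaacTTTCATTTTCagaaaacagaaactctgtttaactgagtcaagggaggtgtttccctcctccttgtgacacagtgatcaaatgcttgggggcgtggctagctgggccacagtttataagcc
Oasl2, chr5:114896804-114896933, plus strand: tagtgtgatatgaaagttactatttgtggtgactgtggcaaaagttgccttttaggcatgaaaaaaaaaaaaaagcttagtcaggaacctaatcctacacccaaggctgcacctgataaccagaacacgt
Ifi44, chr3:151749911-151750040, minus strand: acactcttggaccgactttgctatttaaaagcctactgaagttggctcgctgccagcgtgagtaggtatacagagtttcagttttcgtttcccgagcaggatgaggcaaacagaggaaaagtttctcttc
In Ifit1 and Rsad2 the core reads on the opposite strand, as TTTC, 2 bases, TTTC. The core was present in 7 of 14 members with a window that rose in KO dendritic cells and in 7 of 15 that were not called there, and such a count says nothing about what binds the promoter.

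Library totals ran from 7428821 to 14219823 gene counts, and were lowest in dendritic cells (7428821 to 8281861) and highest in macrophages (11479765 to 14219823). Every pair of libraries in a group differed by more than counting noise (a chi-square per gene of 2.08 or more), so none was counted as a copy. Over all genes the WT macrophage libraries differed most among themselves, at 39.2, 65.8 and 161, against at most 15.9 for a pair in any other group. Summed markers of each labelled cell type were high in its own libraries, for example 4063 to 4402 CPM (counts per gene scaled to the same library total) for 8 B cell genes in WT B cells and 2503 to 2594 CPM for 8 T cell genes in WT CD4 T cells. Itgax, the gene of CD11c, was at 29.0 and 31.3 CPM in KO and WT dendritic cells but at 394 and 262 CPM in macrophages. Macrophage libraries also held 3528 to 4728 CPM of 6 neutrophil markers, mostly Mmp8, with S100a9, Ly6g and Cxcr2 near 0. Mir155 is not among the symbols of the files, so the files offer no check of the knockout at its own locus. The RNA came from mixed lysates of many cells, in which fewer cells of a type and less RNA per cell cannot be told apart.

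In dendritic cells without miR-155, 19 of the 40 members rose and 2 fell. Ifit2, an IFIT protein that binds viral RNA and blocks translation, rose most, 3.34-fold, followed by the OAS protein Oas2 at 2.53-fold. Of all 10536 genes tested in dendritic cells, 12.2% were called higher and 9.42% lower in KO (edgeR quasi-likelihood test, Benjamini-Hochberg adjusted p under 0.05 over all genes tested). Over the members, 33 had a log2 fold change (KO minus WT) above 0 and 7 below, with a median of 0.34, against a median of -0.01 over all genes. In 24 members every KO library lay above every WT library, and in 2 every KO library lay below, against 20.8% and 20.4% of all genes tested. The members' median deviation of a library from the mean of the 6 (log2 of CPM + 0.5) was 0.13, 0.22 and 0.18 in KO and -0.29, -0.06 and -0.08 in WT. WT replicate 1 was the lowest, with 7 of 40 members above the mean, and without it the median log2 fold change was 0.26.

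**Figure D1:**
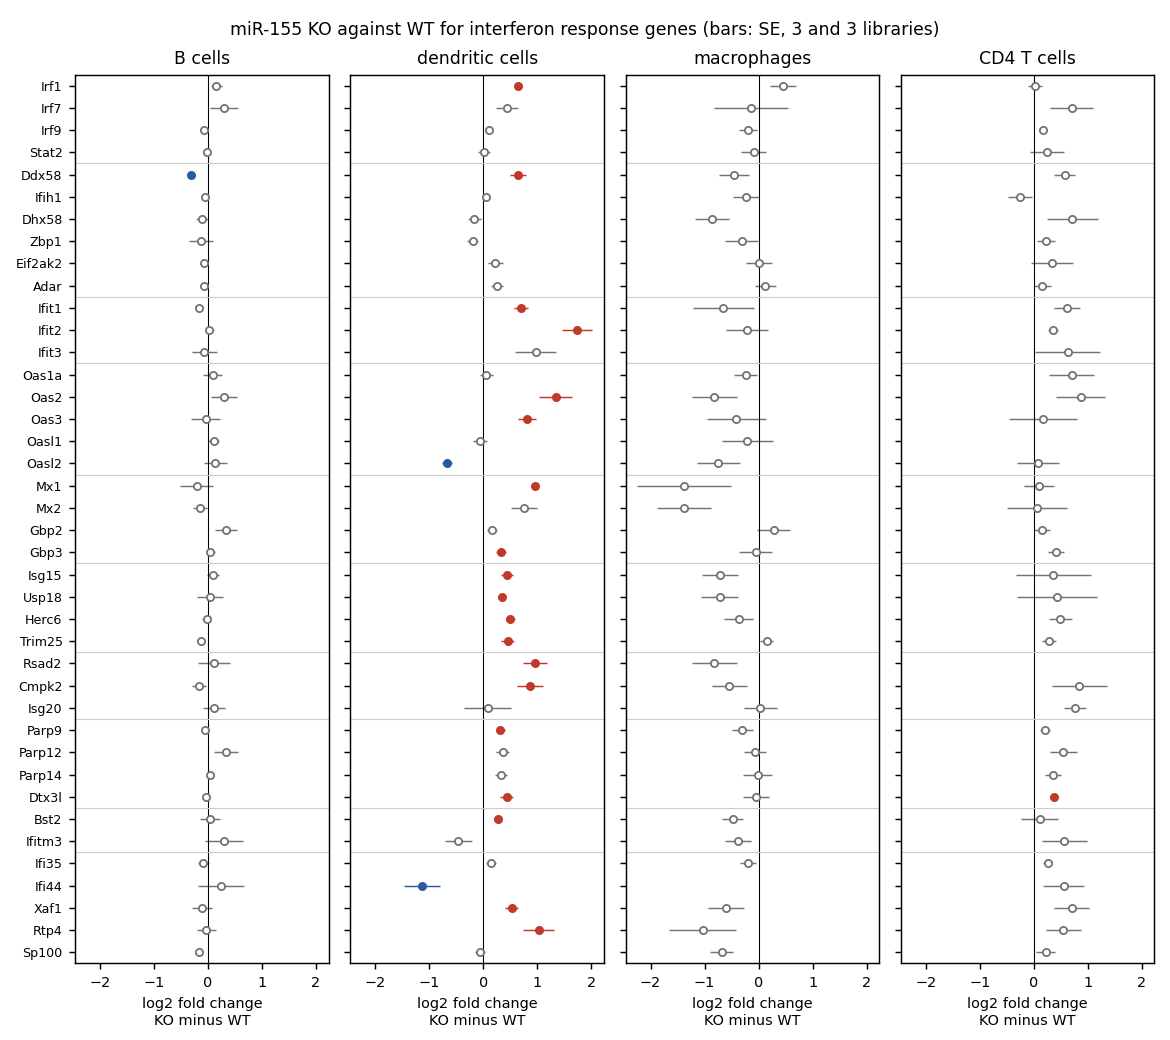
Log2 fold change (KO minus WT, horizontal axis) of each member tested, in rows grouped by role, in the 4 cell types, with SE bars over 3 KO and 3 WT libraries and filled symbols for calls (red higher, blue lower in KO). Dendritic cells show 19 filled red and 2 filled blue symbols, whereas open symbols lie mostly left of 0 in macrophages and right of 0 in CD4 T cells.

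Of the 3 IFIT proteins, 2 rose. Ifit2 stood at 12.54, 12.03 and 9.83 CPM in KO dendritic cells and at 1.66, 4.45 and 4.23 CPM in WT (here and below in the order of the replicate numbers). All 3 KO libraries were above the WT libraries, and WT replicate 1 was the lowest, from 14 reads. The log2 fold change was 1.74 ± 0.28 (SE, adjusted p = 0.0016). Ifit1, which recognises viral RNA caps, was at 42.1, 42.3 and 41.7 CPM in KO and 21.8, 32.0 and 24.1 CPM in WT, a log2 fold change of 0.70 ± 0.13 (adjusted p = 0.0043). The groups did not overlap, and KO libraries were nearly equal to each other. Ifit3, a partner of Ifit1, had 18 to 27 reads in a KO library and 6 to 18 in a WT library and did not pass the test (0.97 ± 0.38, adjusted p = 0.094). Reads of Ifit1 and Ifit3 could be shared with related genes (Ifit1bl1, Ifit3b), as could those within the Oas1, Oasl, Mx and Gbp families. The handling of shared reads is not given in the sources used here, and how alike these sequences are was not checked.

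OAS proteins make the second messenger that activates RNase L, and the members of this family moved in different directions. Oas2 was at 8.32, 9.16 and 8.99 CPM in KO and 1.54, 3.85 and 5.10 CPM in WT. Its log2 fold change was 1.34 ± 0.31 (adjusted p = 0.012), and no library of one group reached the other. Oas3 rose by 0.81 ± 0.17 (adjusted p = 0.0069), from 9.81, 15.8 and 11.8 CPM in WT to 19.8, 24.3 and 21.2 CPM in KO. Oasl2, an OAS-like protein with a ubiquitin-like tail, went the other way. It read 156, 160 and 168 CPM in KO and 230, 280 and 262 CPM in WT, every KO library below every WT library, a log2 fold change of -0.67 ± 0.09 (adjusted p = 0.00052). Oasl1, which represses translation of Irf7, had 187, 178 and 179 CPM in KO and 173, 240 and 157 CPM in WT, with overlapping groups. Oas1a was likewise not called.

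Among the antiviral GTPases, Mx1, known for blocking influenza virus in the nucleus and carried in defective form by C57BL/6 mice, gave the smallest adjusted p of the members (4e-05). It read 274, 269 and 269 CPM in KO and 139, 151 and 131 CPM in WT, a log2 fold change of 0.95 ± 0.08. The lowest KO library was well above the highest WT library, and neither group varied much. Gbp3 rose by 0.33 ± 0.09 (adjusted p = 0.033), while Mx2 (0.75 ± 0.25, adjusted p = 0.053) and Gbp2 did not pass the test. All 4 members of the Isg15 system rose, with log2 fold changes of 0.35 to 0.50. They are Isg15 itself, a ubiquitin-like modifier, its ligases Herc6 and Trim25, and Usp18, a protease that removes Isg15 and restrains the receptor. Without WT replicate 3, Isg15, Usp18 and Trim25 lost their calls (adjusted p = 0.077, 0.051 and 0.079), while Herc6 kept its call. In the fit of all 24 libraries only Trim25 of these 4 was called.

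Rsad2 (viperin) and Cmpk2 are neighbouring genes for nucleotide enzymes, of which viperin makes a chain terminator for viral polymerases. Rsad2 was at 15.2, 13.7 and 12.1 CPM in KO and 5.20, 9.86 and 6.09 CPM in WT (log2 fold change 0.95 ± 0.22, adjusted p = 0.011). Cmpk2 was at 5.41, 5.61 and 5.90 CPM in KO and 2.37, 2.77 and 4.23 CPM in WT (0.86 ± 0.24, adjusted p = 0.029). Both genes had all KO libraries above WT. The third gene of this set, the exonuclease Isg20, was near 1 CPM in both groups and was not called.

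Of the transcription factors, Irf1 rose and the other 3 did not pass the test. Irf1, which drives interferon and antigen presentation genes, read 894, 868 and 890 CPM in KO and 577, 580 and 536 CPM in WT. Each group was tight and the groups were apart, giving a log2 fold change of 0.65 ± 0.07 (adjusted p = 0.0002). Irf7, which amplifies interferon production, was at 53.9, 45.5 and 47.5 CPM in KO and 24, 45.0 and 39.9 CPM in WT (0.44 ± 0.20, adjusted p = 0.15). Its KO libraries were all higher, but by only 0.6 CPM between the closest ones. Irf9 (0.11 ± 0.07) and Stat2 (0.01 ± 0.11), which act together in the interferon complex, were at 151 to 162 and 254 to 283 CPM in KO against 138 to 154 and 224 to 298 CPM in WT. Both overlapped between the groups.

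Of the 6 members grouped as nucleic acid sensors and editors, only Ddx58 (RIG-I), a sensor of viral RNA, rose. It read 51.1, 58.2 and 52.7 CPM in KO and 28.0, 44.1 and 32.3 CPM in WT, without overlap (0.64 ± 0.15, adjusted p = 0.012). Ifih1 (MDA5), Dhx58, Zbp1, Eif2ak2 and Adar were not called. In the ADP-ribosylation set Dtx3l (0.43 ± 0.12) and its partner Parp9 (0.32 ± 0.08) rose, with Parp12 and Parp14 just short of the threshold at adjusted p values of 0.056 and 0.054. Rtp4 rose from 3.78, 6.25 and 9.32 CPM in WT to 9.77, 14.6 and 14.9 CPM in KO (1.03 ± 0.28, adjusted p = 0.029), and its closest libraries were only 0.4 CPM apart. Xaf1, a factor of cell death, rose by 0.53 ± 0.12, and Bst2 (tetherin), which holds budding virus at the cell surface, by 0.27 ± 0.07. Ifi44 fell: its KO libraries had 23, 9 and 12 reads and its WT libraries 28, 43 and 38 (-1.13 ± 0.33, adjusted p = 0.033). Ifitm3, Ifi35 and Sp100 were not called.

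**Figure D2:**
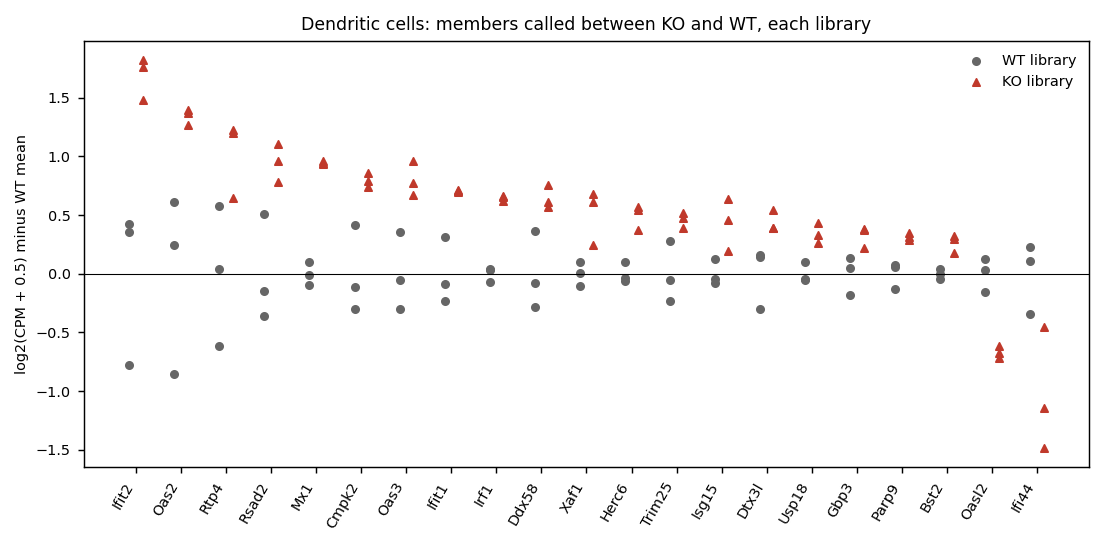
Log2(CPM + 0.5) of the 21 members called in dendritic cells, each library plotted relative to the mean of the 3 WT libraries (vertical axis), grey circles for WT and red triangles for KO. For each gene the 3 triangles lie on one side of the 3 circles, with Bst2 and Irf1 the tightest and Ifit2, Oas2 and Rtp4 the most spread among WT libraries.

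The number called depended on the spread assumed and on single libraries. With 1 spread per gene estimated over all 24 libraries, 6 members rose (Ifit2, Mx1, Rsad2, Irf1, Dtx3l and Trim25) and none fell, against 9.94% higher and 9.34% lower over all genes in that fit, Oasl2 then having an adjusted p of 0.1. Leaving out 1 of the 6 libraries left 10 to 21 higher and 1 to 3 lower, the lowest counts being 12, 10 and 10 higher without KO replicate 1, 2 or 3, when 8.41%, 6.86% and 7.49% of all genes were called higher. The count was 21 without WT replicate 1 or 2, when 15.1% and 13.7% of all genes were. Without WT replicate 3, whose summed macrophage markers stood at 381 CPM against 172 and 213 CPM in the other WT libraries, 14 rose and 1 fell, against 8.28% and 5.64% of all genes. Ifit2, Mx1 and Irf1 were called in all 12 alternative fits.

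Other markers also differed between the dendritic cell groups. The 10 macrophage markers summed to 128 to 133 CPM in KO and 172 to 381 CPM in WT, the 8 conventional dendritic cell markers to 14645 to 15432 CPM in KO and 11220 to 12053 CPM in WT. Most of the latter difference came from Fscn1, with means of 8395 CPM in KO and 5299 CPM in WT. Flt3 (1573 and 1486 CPM), Zbtb46 (174 and 169 CPM) and Batf3 (113 and 109 CPM) differed little, and Itgax (29.0 and 31.3 CPM) and Xcr1 (0.72 and 1.68 CPM) were lower in KO. The 8 plasmacytoid dendritic cell markers, for a cell known for making interferon, summed to 164 to 228 CPM in KO and 146 to 191 CPM in WT, with overlap, and none of the 8 was at 0. The part of these shifts in the members' rise was not tested.

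In CD4 T cells the same 40 genes leaned upward in KO, but 1 passed the test. Of 38 members tested (Oasl1 and Rsad2 had too few reads), 37 had a log2 fold change above 0, with a median of 0.36 against 0.00 over all genes. That median was 0.22 without WT replicate 2, with 32 members above 0, and 0.57 without WT replicate 3, with 37 above. The single call, Dtx3l, is the ubiquitin ligase that works with Parp9 and 1 of the 2 members with a 7mer-A1 site. Dtx3l read 138, 137 and 129 CPM in KO and 104, 95.6 and 114 CPM in WT, without overlap (0.37 ± 0.06, adjusted p = 0.012). Of all 10396 genes tested, 1.35% were called higher and 0.798% lower. Ifit2, the other member with such a site, was at 28.4, 25.5 and 26.7 CPM in KO and 21.4, 19.3 and 22.6 CPM in WT. Its groups did not overlap either, and its test fell just short (0.35 ± 0.09, adjusted p = 0.054). Dtx3l and Ifit2 had log2 fold changes of -0.03 and 0.03 in B cells and -0.04 and -0.22 in macrophages, none called. In T cells Isg20 (0.76 ± 0.20, adjusted p = 0.077), Ddx58, Ifi35, Gbp3 and Herc6, which held no site, also had no overlap. A part of the sites was not tested. KO libraries lay above all WT libraries in 7 members and below in none, against 11.2% and 11.3% of all genes.

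In T cells 1 WT library lay with the KO libraries for most members. Over the members, the median deviation of a library from the mean of the 6 (log2 of CPM + 0.5) was 0.31, 0.22 and -0.01 in KO and -0.31, -0.49 and 0.23 in WT. WT replicate 3 was thus above the other WT libraries and above KO replicates 2 and 3. Over all genes the median deviation of a T cell library was at most 0.011 in size, but scaling holds that median near 0. Usp18 illustrates it, at 20.9, 16.9 and 11.6 CPM in KO and 4.83, 6.45 and 25.2 CPM in WT. Isg15 did the same, at 17.9, 14.7 and 8.62 CPM in KO and 5.37, 5.66 and 21.0 CPM in WT.

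Without WT replicate 3, which was left out after these values were seen and as 1 of the 6 leave-outs run, 20 of the members were called higher and none lower, against 2.51% higher and 1.38% lower over all genes in that fit. They included Usp18 (1.53 ± 0.30, adjusted p = 0.048), Dhx58 (1.32 ± 0.19), Irf7 (1.20 ± 0.24), Xaf1 (1.15 ± 0.16) and Eif2ak2 (0.82 ± 0.09, adjusted p = 0.00016). Ifit2 (0.40 ± 0.10, adjusted p = 0.028), Stat2 (0.60 ± 0.10) and Irf9 (0.27 ± 0.07) were among them. Leaving out any other T cell library gave 0 to 3 calls, when 0.21% to 3.05% of all genes were called higher. Dtx3l itself lost its call when WT replicate 2 or either of KO replicates 1 and 2 was left out, and in the fit of all 24 libraries. Counts with other tools were 4 with DESeq2 (Dtx3l, Isg20, Ddx58 and Gbp3) and 2 without the expression filter. Of all genes, 1.36% and 1.86% were called higher in those fits.

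**Figure D3:**
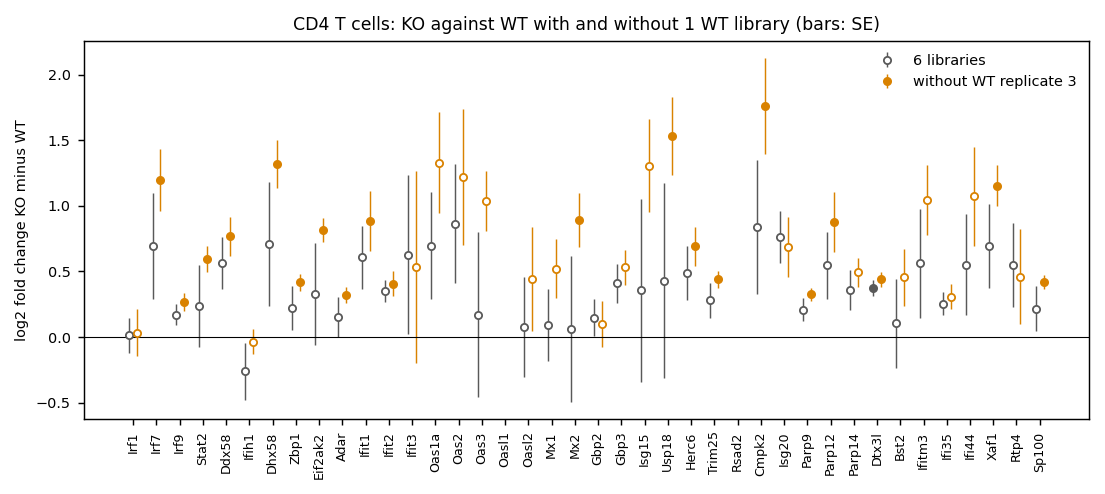
Log2 fold change (KO minus WT, vertical axis) of each member in CD4 T cells with all 6 libraries (grey) and without WT replicate 3 (orange), bars showing SE and filled symbols calls. Of the grey symbols only Dtx3l is filled, whereas 20 of the orange ones are, most of them higher than the grey symbol beside them.

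Values that moved with the T cell libraries are given here without a test of their part. Ifng, the type II interferon, which induces many of the same genes, was at 2.07, 1.46 and 0.78 CPM in KO and 0.72, 1.22 and 7.27 CPM in WT, so that WT replicate 3 was highest. The 8 B cell markers summed to 57.2, 57.6 and 33.1 CPM in KO and 23.3, 26.1 and 42.1 CPM in WT, none at 0, in nearly the order of the members. Monocyte markers were at 3.1 CPM in WT replicate 3 and at 0.54 to 1.79 CPM in the other T cell libraries, and the 10 macrophage markers at 8.86 to 10.98 CPM throughout. All 6 neutrophil markers were at 0 in KO.

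In macrophages the members leaned downward in KO and none was called. Ifit3 and Ifi44 had too few reads to test. Of 38 members, 32 had a log2 fold change below 0 and 6 above, with a median of -0.31 against -0.02 over all genes. An unadjusted p under 0.05 (edgeR) was found for 4, but the share of all genes under that threshold is not given here. The median was -0.59 without WT replicate 2 and -0.53 without KO replicate 3 (34 below 0 and 4 above in both fits), -0.13 without WT replicate 1 (25 below and 13 above) and -0.20 without KO replicate 1. Over all 10730 genes, 0.55% were called higher and 0.336% lower, so calls were few in this cell type altogether. DESeq2 and the replicate block also called none. With the block the median was -0.26, with 30 members below 0 and 8 above, and Irf7 had a log2 fold change of 0.31 ± 0.63. The other values here are from fits without the block. Irf1 and Trim25 had all KO libraries above WT, and Sp100 and Bst2 all below, against 11.3% and 13.2% of all genes tested.

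Single macrophage libraries of 1 group lay far apart for some members. Irf7 read 186, 193 and 366 CPM in KO and 555, 65.7 and 216 CPM in WT, so that WT libraries held both the highest and the lowest value (log2 fold change -0.14 ± 0.68, adjusted p = 0.94). Isg15 was at 11.5, 9.64 and 15.3 CPM in KO and 30.2, 12.7 and 18.3 CPM in WT. Its groups overlapped through WT replicate 2 (-0.72 ± 0.33, adjusted p = 0.32). Sp100, a nuclear body protein, was at 59.0, 70.6 and 77.1 CPM in KO and 133, 80.2 and 125 CPM in WT (-0.68 ± 0.21, adjusted p = 0.16). Here WT replicate 2 was lowest of its group but still above the KO libraries.

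The members' median deviation was -0.31, -0.27 and 0.20 in KO macrophages and 0.56, -0.33 and 0.27 in WT. WT replicate 2 was the lowest of the 6, with 3 of 38 members above the mean, and WT replicate 1 the highest, with 37. Over all genes the median deviation was at most 0.022 in size, but scaling holds that median near 0. It therefore does not show that the spread was particular to the members, and the WT macrophage libraries also differed widely over all genes. Without WT replicate 2, Dhx58 (-1.15 ± 0.18, adjusted p = 0.041) and Sp100 (-0.88 ± 0.13, adjusted p = 0.039) were called lower, against 0.72% higher and 0.646% lower over all genes in that fit. Without WT replicate 3, 1 member was called lower, in a fit that called 25.4% of all genes in either direction. The 4 monocyte markers, led by Ly6c2, summed to 234, 25.8 and 156 CPM in WT, in the same order as the members' deviations, and to 79.3, 44.1 and 31.7 CPM in KO, where the order differed. The 10 macrophage markers summed to 24470, 32353 and 18187 CPM in WT and 16439 to 17935 CPM in KO, and 6 stromal markers to 160 to 400 CPM in WT and 356 to 809 CPM in KO. Their part in the members' spread was not tested.

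**Figure D4:**
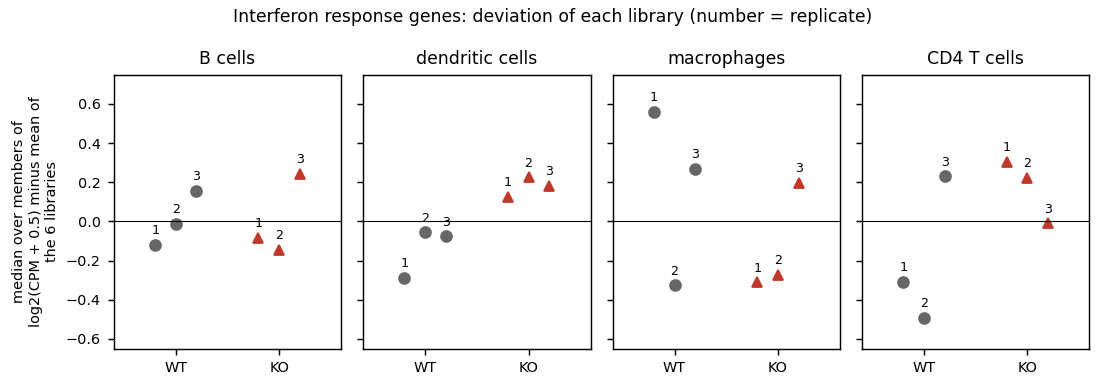
Median over the members of each library's log2(CPM + 0.5) minus the mean of the 6 libraries of its cell type (vertical axis), grey circles for WT, red triangles for KO, with the replicate number above each point. All 3 KO libraries lie above the WT libraries in dendritic cells, whereas in macrophages WT replicates 1 and 2 are the extremes, and in CD4 T cells WT replicate 3 lies with the KO libraries.

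In B cells differences between KO and WT were small. All 40 members were tested, 18 with a log2 fold change above 0 and 22 below, with a median of -0.03 against 0.00 over all genes. This balance moved with single libraries, to 6 above and 34 below (median -0.10) without KO replicate 3 and to 24 above and 16 below (median 0.06) without WT replicate 3. The median was -0.06 without WT replicate 1, -0.05 without WT replicate 2, 0.05 without KO replicate 2 and 0.00027 without KO replicate 1. Ddx58 alone was called, and it was lower in KO. It read 102, 105 and 116 CPM in KO and 123, 131 and 147 CPM in WT, without overlap (-0.31 ± 0.07, adjusted p = 0.027). Of all 10151 genes tested, 2.09% were called higher and 1.11% lower. Leaving out KO replicate 1 or 2 or WT replicate 2 or 3, or using the fit of all 24 libraries, ended the call of Ddx58. In 4 members (Ddx58, Ifit1, Sp100 and Trim25) every KO library lay below every WT library and in none above, against 10.3% and 11.3% of all genes. Differences were small even there, and Ifit1 was at 76.8, 68.3 and 81.3 CPM in KO and 85.5, 82.4 and 84.7 CPM in WT (-0.16 ± 0.07, adjusted p = 0.25).

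The members' median deviation in B cells was -0.08, -0.15 and 0.24 in KO and -0.12, -0.01 and 0.16 in WT, so replicate 3 was highest in each genotype. KO replicate 3 also held the highest sum of 4 erythroid markers, 18.4 CPM, mostly Alas2, against 0.1 to 3.95 CPM in the other B cell libraries. With the replicate number as a block, 2 members rose (Irf7 and Oas2) and 3 fell (Ddx58, Ifit1 and Sp100), while over all genes 6.43% rose and 5.98% fell in that fit. The numbers were not shown to pair the B cell libraries. The titles and the deposited files number the WT libraries of B cells differently, the titles were followed, and the block rests on that choice.

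A single model of the 24 libraries compared the KO effect across cell types. Over the 4 cell types it differed for 3 of the 40 members (Ifit2, Ddx58 and Sp100), against 12.6% of the 12249 genes tested. Before adjustment, 14 of 40 had a p under 0.05, but the share of all genes under that unadjusted threshold is not given here. For Ifit2 the effect in dendritic cells exceeded that in macrophages by 1.98 ± 0.45 on the log2 scale (adjusted p = 0.0069), that in B cells by 1.71 ± 0.26 (adjusted p = 0.0005) and that in T cells by 1.39 ± 0.27 (adjusted p = 0.0026). Ifit2 is the only member for which all 3 differences from dendritic cells passed. Its adjusted p over the 4 cell types (0.00087) ran from 1.9e-09 to 0.0043 over the alternatives.

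Ddx58 was called in opposite directions in dendritic cells (higher) and B cells (lower), and its effect differed over the 4 cell types (adjusted p = 0.028). Between those 2 cell types the difference was 0.94 ± 0.31 and did not pass (adjusted p = 0.082), whereas between dendritic cells and macrophages it was 1.10 ± 0.31 (adjusted p = 0.029). Sp100 differed over the 4 cell types (adjusted p = 0.032, and 0.0576 with the replicate block), and its effect in macrophages minus that in T cells was -0.92 ± 0.22 (adjusted p = 0.018). The next members by adjusted p were Mx1 (0.057), Oas2 (0.06), Rsad2 (0.062), Herc6 (0.071) and Parp9 (0.077).

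By pairs, the effect in dendritic cells differed from that in macrophages for 6 members (Ifit2, Oas2, Rsad2, Ddx58, Parp9 and Herc6), each higher in dendritic cells, against 9.27% of all genes. From B cells it differed for 2 (Ifit2 and Trim25), against 5.63%, and from T cells for 1 (Ifit2), against 6.1%. Macrophages and T cells differed for 1 (Sp100), against 3.63%. No member differed between macrophages and B cells (2.67% of genes) or between B and T cells (0.0571% of genes) by edgeR. In each of these pairs 3 had an unadjusted p under 0.05, but the share of all genes under that threshold is not given here. Except for dendritic cells against macrophages, the counts of members were too small to be set apart from the shares of all genes. The count over the 4 cell types was 13 without macrophage WT replicate 2 or without T cell WT replicate 3, 9 without macrophage KO replicate 3, 5 without dendritic cell WT replicate 2 or macrophage WT replicate 3, and 1 without macrophage KO replicate 1 or 2 or WT replicate 1. Between dendritic cells and macrophages it was 14 without macrophage WT replicate 2, 12 without T cell WT replicate 3, and 1 without macrophage WT replicate 1. It was 2 without macrophage KO replicate 1 or 2, dendritic cell KO replicate 2 or 3 or dendritic cell WT replicate 1, and 3 without dendritic cell WT replicate 3. The share of all genes in these leave-outs is not given here.

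Since the members answer to interferon, its ligands and signalling genes are given next. The 20 type I and type III interferon genes together had 0 to 6 reads per group of 3 libraries and at most 2 in 1 library. Ifnb1, usually the first to be induced by LPS, had 1 read in each of the WT groups of B cells and dendritic cells, and 0 reads in the other 6 groups. Ifnar1 was at 122, 128 and 108 CPM in KO dendritic cells and 104, 137 and 127 CPM in WT, and Ifnar2 at 61.8, 53.2 and 60.3 against 69.2, 62.3 and 77.1 CPM. Neither receptor chain was called in any cell type, with log2 fold changes of -0.04 and -0.25 in dendritic cells, 0.03 and -0.04 in B cells, 0.01 and -0.34 in macrophages and 0.20 and -0.03 in T cells. The receptor and kinase list had 2 of 7 genes higher and 1 lower in dendritic cells, and these belong to the interferon gamma and shared arm. They were Ifngr2 (0.31 ± 0.07), the kinase Jak2 (0.29 ± 0.07) and Ifngr1 (-0.45 ± 0.09).

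Irf3, which starts Ifnb1 transcription after Toll-like receptor signalling, had log2 fold changes of -0.16, 0.00, -0.44 and -0.19 in dendritic cells, B cells, macrophages and T cells, none called. Stat2 and Irf9 were not called in any of the 4 with all libraries, at -0.03 and -0.07 in B cells, -0.09 and -0.20 in macrophages, and 0.24 and 0.17 in T cells. Irf7 had 0.30 in B cells and 0.70 in T cells, not called. Among IRF genes outside the members, Irf4 (0.32 ± 0.08) and Irf5 (0.37 ± 0.07) rose in dendritic cells.

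Among 20 sensors and adaptors of interferon induction, 4 rose and 3 fell in dendritic cells, where 12.2% of all genes rose and 9.42% fell. The adaptor Ticam2 (TRAM), which links Tlr4 to the interferon branch, rose from 3.67, 2.65 and 3.36 CPM to 7.79, 7.66 and 6.46 CPM (1.18 ± 0.20), while its partner Ticam1 (TRIF) fell (-0.24 ± 0.07, adjusted p = 0.037). Myd88, the adaptor of the inflammatory branch, fell from 33.5, 32.5 and 35.2 CPM to 21.8, 22.3 and 21.4 CPM (-0.63 ± 0.09, adjusted p = 0.0011), and Tmem173 (STING) fell by 0.38 on the log2 scale. Irak1 rose by 0.34 ± 0.10. Of 12 inhibitors tested, 2 rose, Pias1 (0.52 ± 0.07) and the phosphatase Ptpn2 (0.57 ± 0.09), and 3 fell, Ptpn1 (-0.39 ± 0.08), Trex1 (-0.35 ± 0.10) and Nlrx1 (-0.43 ± 0.14).

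Other interferon-induced genes were also mixed in dendritic cells: 14 of 67 tested rose and 9 fell, with a median of 0.12. Phf11b rose to 125, 125 and 120 CPM from 68.0, 63.9 and 60.3 CPM (0.95 ± 0.07), and Ifit1bl1, a close relative of Ifit1, to 11.8, 11.5 and 12.1 CPM from 0.83, 1.80 and 1.99 CPM (2.93 ± 0.25). Cd274 (PD-L1), an inhibitor of T cells, rose by 0.78 ± 0.09. The DNA sensor Aim2 (-0.99 ± 0.11) and its relative Mndal (-0.59 ± 0.07) fell. Of 20 NF-kB-driven inflammatory genes, 8 rose, among them Il1b (0.77 ± 0.09), Birc3 (0.54 ± 0.07), Cxcl3 (1.29 ± 0.18), Il12b (1.19 ± 0.17) and Relb (0.51 ± 0.08), and 2 fell. The counts in these lists stand beside the same 12.2% of all genes called higher and 9.42% called lower.

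In the other cells few genes of these lists were called. Over all genes, 1.35% rose and 0.798% fell in T cells, 0.55% and 0.336% in macrophages, and 2.09% and 1.11% in B cells. In T cells, Gbp5 (0.29 ± 0.05), Uba7, the enzyme that activates Isg15 (0.35 ± 0.07), and Ifi47 (0.26 ± 0.06) rose among 61 other interferon-induced genes, 55 of which had a log2 fold change above 0, and Tnf fell (-0.70 ± 0.11). In macrophages none was called, and 48 of 62 other interferon-induced genes were below 0. In B cells Ifitm2 (0.57 ± 0.13), Birc3 (0.23 ± 0.05) and Cd40 (0.22 ± 0.06) rose, and Helz2 (-0.27 ± 0.06), Uba7 (-0.25 ± 0.06) and the inhibitor Nlrc3 (-0.70 ± 0.14) fell.

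The level of the members in WT cells also depended on the cell type, measured within each gene. The highest mean level was in B cells for 18 members, in dendritic cells for 15, in macrophages for 6 and in T cells for 1 (Gbp2). The lowest was in T cells for 24, in macrophages for 12, in dendritic cells for 3 and in B cells for 1 (Irf1). The same counts over all genes are not given here, so this order is not shown to be particular to the members. T cells alone received no LPS, and the 16 members that were not lowest there included Ifit2 (lowest in macrophages) and Isg20 (lowest in dendritic cells).

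**Figure D5:**
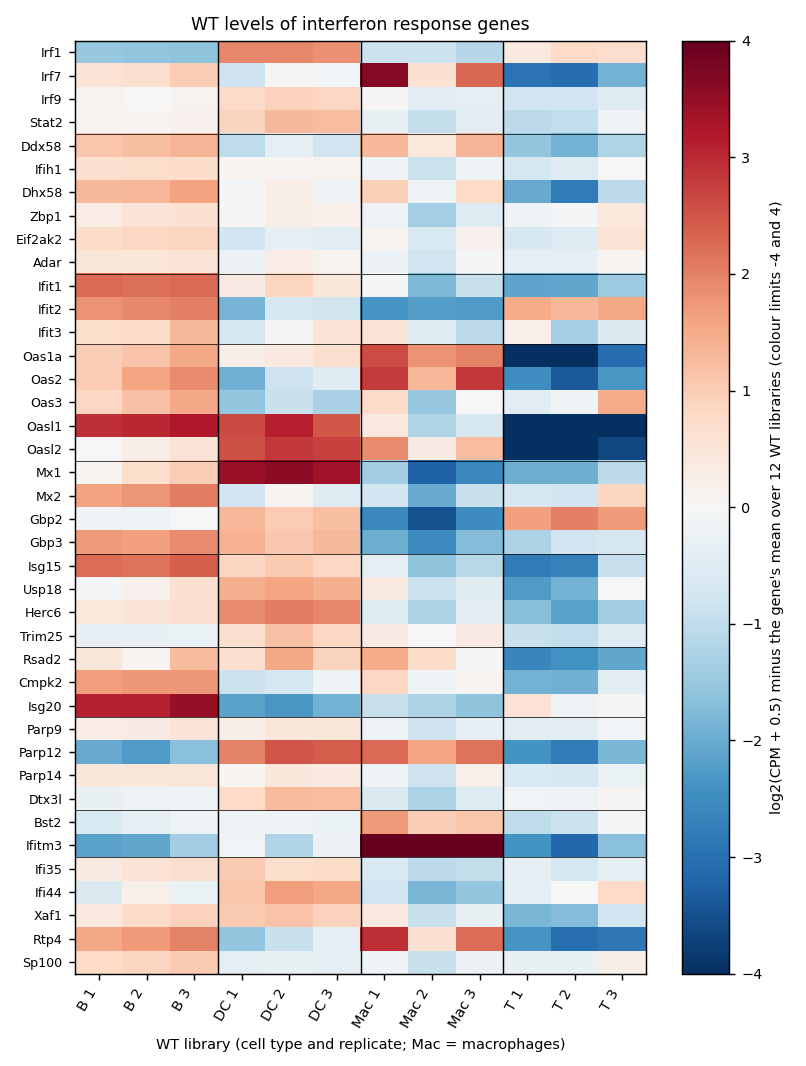
Log2(CPM + 0.5) of each member (rows, grouped by role) in the 12 WT libraries (columns, 3 per cell type), relative to the gene's mean over the 12, red above and blue below, with colours limited at -4 and 4. Oasl1 and Oasl2 are dark blue in T cells, Ifitm3 is dark red in macrophages and Mx1 dark red in dendritic cells, while rows such as Parp9 and Adar are pale throughout.

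The widest range of mean log2 level was that of Oasl1, 8.35. It had 211, 225 and 253 CPM in B cells, 173, 240 and 157 CPM in dendritic cells, 36.0, 11.5 and 17.4 CPM in macrophages, and 0, 0 and 0.89 CPM in T cells, where 10 reads of replicate 3 were the only ones. B cells and dendritic cells did not differ beyond their spread (adjusted p = 0.51), and the other steps were called. Ifitm3, which blocks virus entry at endosomes, ranged over 7.19. Its macrophage libraries had 1230, 709 and 1199 CPM, its dendritic cells 33.6, 15.5 and 30.8 CPM, its B cells 7.80, 8.13 and 13.4 CPM and its T cells 6.44, 3.66 and 11.1 CPM. Only the last step was not called (B minus T 0.45, adjusted p = 0.39).

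Oasl2 ranged over 6.84, falling from dendritic cells (230, 280 and 262 CPM) to macrophages (144, 48.7 and 92.4 CPM), B cells (37.9, 46.4 and 56.1 CPM) and T cells (1.79, 1.05 and 2.66 CPM), and each step was called. Oas1a ranged over 5.91, with 153, 85.9 and 98.0 CPM in macrophages and 1.07, 0.78 and 2.48 CPM in T cells. Mx1 ranged over 5.87, with dendritic cells well above B cells (12.9, 20.3 and 24.9 CPM), T cells (2.77, 2.79 and 5.67 CPM) and macrophages (4.33, 0.84 and 1.63 CPM). The last pair did not differ beyond its spread (adjusted p = 0.18).

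The narrowest ranges were those of Parp9 (0.85), Adar (0.86), Parp14 (0.96), Ifih1 (1.11) and Zbp1 (1.16). Adar, the enzyme that edits adenosine in double-stranded RNA, had 299, 298 and 314 CPM in B cells, 183, 261 and 234 CPM in dendritic cells, 166, 166 and 226 CPM in T cells and 182, 123 and 207 CPM in macrophages. Only B cells against T cells and B cells against macrophages were called for it. For Parp9, Parp14 and Ifih1 macrophages and T cells did not differ beyond their spread.

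The transcription factors had different orders. Irf1 was highest in dendritic cells and lowest in B cells (53.0, 50.9 and 49.0 CPM), with every pair of cell types called. Irf7 was highest in macrophages, which differed from the next cell type, B cells (63.9, 68.6 and 89.0 CPM), by 1.94 (adjusted p = 0.0065) although WT replicate 2 of macrophages lay within the B cell range. Irf9 and Stat2 were highest in dendritic cells. Stat2 did not differ between macrophages and T cells (adjusted p = 0.59), while all 6 pairs were called for Irf9.

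Counts over pairs of cell types were read against a background in which most genes differ. Dendritic cells exceeded macrophages for 22 members and were below for 8 (38.1% and 39.4% of all 11863 genes), with a median difference of 0.73 on the log2 scale against -0.01 over all genes. Against B cells dendritic cells were higher for 14 and lower for 16 (41.2% and 37.4%), with a median of -0.27. Dendritic cells exceeded T cells for 28 members and were lower for 4 (40.6% and 38.8%), with a median of 1.504. Macrophages were above B cells for 9 and below for 25 (41.6% and 38.8%), with a median of -0.83. They were above T cells for 18 and below for 10 (41.8% and 39.9%), with a median of 0.40. B cells exceeded T cells for 30 and were lower for 2 (25.6% and 24.7%), with a median of 1.18. With RLE scaling the median of all genes was 0.165 for dendritic cells minus B cells and 0.118 for dendritic cells minus T cells, against 0.084 and 0.041 with TMM scaling. It was 0.117 for macrophages minus B cells and 0.102 for macrophages minus T cells, against 0.043 and 0.030 with TMM scaling. The members' medians given above are with TMM scaling, and those with RLE scaling are not given here.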

How the data were processed

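RNA of 24 libraries was measured by paired-end TruSeq sequencing. The deposited files hold whole-number counts per gene, with no normalization by the authors. STAR, cutadapt and mm9 are named per the submitters' processing notes, and for the counter, its strand setting and its handling of shared reads the sources used here name nothing. Lines naming no gene (51.4% to 61.1% of a file as no feature) were left out. Groups followed the labels. KO and WT were compared within a cell type (3 against 3) with edgeR 4.0.16 in R 4.3.3: TMM scaling, filterByExpr, the robust quasi-likelihood test and Benjamini-Hochberg adjustment, called at 0.05. A fit of 24 libraries tested differences between cell types, and one of 12 WT libraries compared levels. CPM used TMM over 24 libraries, with 0.5 added before log2. SE is the size of the log2 fold change over the square root of F. The code was tested on simulated data.

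The members and lists were chosen with earlier results of these data known. Genes named are the largest called changes (up to 12 a cell type), the 8 smallest adjusted p between cell types, the 5 widest and 5 narrowest WT ranges, fixed regulators, and up to 5 called genes of each other list. Names beyond that, such as Isg15 or members short of the threshold, were chosen after their values were seen. Alternatives were RLE scaling, DESeq2 1.42.0, other filters, 1 fit of all libraries, the replicate block and leaving out each library. In macrophages same-numbered KO and WT libraries deviated together (correlations of 0.127, 0.314 and 0.394), so the numbers may mark pairs there. KO replicate 1 correlated nearly as much with WT replicate 2 (0.116). The macrophage results given are from the fit without pairs unless the block is named. The block called no member either. One item withheld for evaluation is not reported here.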

Additional observations from a re-analysis of the deposited data

Results flagged for a closer look

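The KO effect differed between the 4 cell types, by a test of the difference itself (edgeR quasi-likelihood test, Benjamini-Hochberg adjusted over all genes), for 3 members. Of the 12249 genes tested, 12.6% differed. Ifit2 had an adjusted p of 0.000866, with log2 fold changes in that fit of 1.74 in dendritic cells, 0.35 in T cells, 0.03 in B cells and -0.24 in macrophages, and was called under every alternative run. Ddx58 had an adjusted p of 0.0280, with 0.64 in dendritic cells and -0.31 in B cells, and without the expression filter its adjusted p was 0.0509. Ddx58 also lost its call when 1 library was left out, for dendritic cell KO replicate 2, WT replicate 1 or WT replicate 3 and for macrophage KO replicate 1, KO replicate 2 or WT replicate 1, with adjusted p values up to 0.0576. Sp100 had an adjusted p of 0.0324, and 0.0576 with the replicate block. Sp100 lost its call without any 1 of macrophage KO replicates 1 and 2 and WT replicates 1 and 3, or of T cell KO replicates 1 and 2 and WT replicates 1 and 2, with adjusted p values up to 0.0993.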

How the results depend on the processing

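With 1 fit of all 24 libraries, 6 members rose and 0 fell in dendritic cells, 0 fell in B cells, 1 fell in macrophages and 0 rose in T cells. Over all genes that fit called 9.94% higher and 9.34% lower in dendritic cells. In either direction it called 0.661% in B cells, 14.3% in macrophages and 0.514% in T cells. With the replicate block, 2 rose and 3 fell in B cells, 2 rose in T cells, 7 differed between the 4 cell types, 4 between dendritic cells and B cells and 3 between macrophages and T cells. Of all genes in the block fits, 6.43% rose and 5.98% fell in B cells, and 1.6% rose in T cells. DESeq2 gave 4 higher in T cells and 10 differing between cell types, and no expression filter gave 2 higher in T cells. Of all genes in T cells, 1.36% were higher with DESeq2 and 1.86% without the filter. Leaving out 1 library gave 0 to 2 lower in B cells, 10 to 21 higher and 1 to 3 lower in dendritic cells, 0 to 2 lower in macrophages and 0 to 20 higher in T cells. It gave 1 to 13 differing between the 4 cell types, 1 to 14 between dendritic cells and macrophages, 1 to 4 between dendritic cells and B cells, 1 to 2 between dendritic cells and T cells, 0 to 2 between macrophages and B cells and 0 to 9 between macrophages and T cells. Over the same leave-outs, 1.37% to 4.3% of all genes were called in B cells and 11% to 27% in dendritic cells. The share was 0% to 25.4% in macrophages and 0.305% to 5.69% in T cells. For the tests between cell types, the share of all genes under these alternatives is not given here. The cause was not tested.

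Regulators that changed sign were uncalled throughout. Irf3 in B cells was -0.00109 with DESeq2, Irf7 in macrophages 0.308 with the block and Ifnar1 in macrophages -0.00288 in the fit of all libraries. Leaving out 1 library, log2 fold changes ran in B cells from -0.058 to 0.079 (Irf3), -0.0808 to 0.0047 (Stat2), -0.0872 to 0.0864 (Ifnar1) and -0.0818 to 0.0018 (Ifnar2). In dendritic cells they ran from -0.11 to 0.096 (Stat2) and -0.151 to 0.052 (Ifnar1). In macrophages they ran from -0.61 to 0.839 (Irf7), -0.32 to 0.043 (Stat2) and -0.11 to 0.193 (Ifnar1), and in T cells from -0.0807 to 0.025 (Ifnar2). Of the alternatives for single genes, 949 kept direction and side of the threshold, 123 lost a call, 40 gained one and 24 changed sign.

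Outside macrophages the replicate numbers were not shown to pair libraries: correlations of same-numbered libraries were 0.205, 0.043 and 0.246 in B cells (by the numbers in the titles), -0.029, 0.146 and -0.096 in dendritic cells and 0.042, 0.072 and -0.249 in T cells. Members with few reads (Ifit3, Ifi44 and Isg20 in dendritic cells) are limited by depth.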
